A study of Mus musculus with 4 samples.

Results

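The imprinted Dlk1-Dio3 domain of mouse chromosome 12 carries one of the largest groups of miRNA genes in the genome, and its miRNAs were examined here in exosome-enriched preparations from C8-D1A cells, an established mouse cerebellar astrocyte line. Members were chosen by name: a mature miRNA belonged to the cluster when its number was one of 47 numbers assigned to the domain, whatever its letter or arm. The deposited table lists 389 mature miRNAs, and 12 of them met this rule. These 12 miRNAs represented 11 of the 47 numbers, and the other 36 numbers had no entry in the table. The rule refers to names and not to measured values. Every listed miRNA was above 0 in at least 1 library, so the absence of an entry sets no level.

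Small RNA was sequenced from 4 libraries. The 2 libraries of the control group came from wild-type cells kept at 37 °C, for 8 h by the sample labels and for 2 h by the cell culture methods. The 2 libraries of the heat stress group came from wild-type cells exposed to 42 °C over 2 h, then rewarmed at 37 °C over 6 h. The libraries of a group are described as biological replicates, and all came from a single cell line grown with fetal bovine serum, which itself carries vesicles and miRNAs.

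Each imprinted gene of the domain is expressed mainly from 1 parental copy. The maternally inherited copy produces the long noncoding RNAs Meg3, Rian and Mirg together with the miRNAs, whereas the paternally inherited copy expresses the protein-coding genes Dlk1, Rtl1 and Dio3. Several of the miRNAs lie antisense to Rtl1, a retrotransposon-derived gene, and direct cleavage of its transcript. In brain the cluster is known mainly from neurons, where miR-134 restrains dendritic spine growth.

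Each deposited value is a normalized value, and within a library every value is a whole multiple of the smallest value in that library. Such a multiple is called a step here, and is worth 1 read if the authors divided read counts by a size factor. The criterion used for taking steps as reads was met in control 1 and heat stress 1 only. Control 2 had 96 values of at most 20 steps where 100 were needed, and the criterion does not accept a step as near to 1 as the 1.00093 of heat stress 2, although its values were not whole numbers. All counting intervals and limits given here therefore hold only if a step is 1 read. On this reading the libraries held 43675 and 95020 steps (control 1 and 2) and 100933 and 63338 steps (heat stress 1 and 2) over all miRNAs. A miRNA at 0 could still hold up to 3 steps, which equals 68.7 and 31.6 per 1000000 steps in control 1 and 2 and 29.7 and 47.4 in heat stress 1 and 2. These limits, and the intervals given for shares, cover counting error only.

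The cluster held little signal in the exosome-enriched preparations, and in 3 of the 4 libraries it was close to undetected. The 12 miRNAs together held 37 steps in control 1, 3 steps in control 2, 7 steps in heat stress 1 and 4 steps in heat stress 2, or 51 of 302966 steps in all. As a share of the library total this was 0.0847% in control 1, with a 95% exact binomial interval (Clopper-Pearson) from 0.0597% to 0.117%. The share was 0.00316% in control 2 (interval 0.000651% to 0.00923%), 0.00694% in heat stress 1 (0.00279% to 0.0143%) and 0.00632% in heat stress 2 (0.00172% to 0.0162%). Control 1 therefore stood apart from the other 3 libraries, whose intervals overlapped one another. Its share was 12.2 times the highest of the other shares, although it was the library with the fewest steps.

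**Figure D1:**
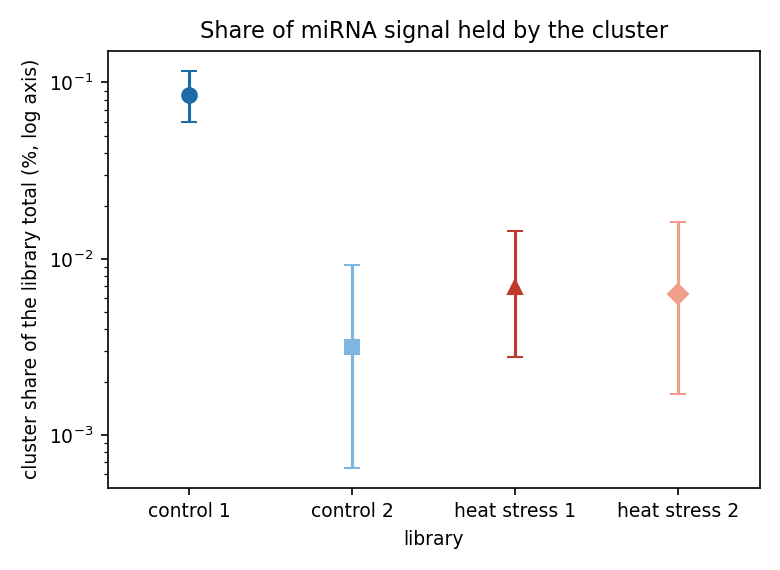
Share of each library's total held by the 12 cluster miRNAs (%, log axis), with 1 point per library and bars for the 95% exact binomial interval. Control 1 lies at 0.0847%, and the other 3 libraries lie between 0.00316% and 0.00694% with overlapping intervals.

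The difference between the groups was smaller than the spread within the control group. Control libraries averaged a share of 0.0439% ± 0.0577 (SD, n = 2). Heat stress libraries averaged 0.00663% ± 0.000438 (SD, n = 2), a difference of -0.0373 percentage points. Without control 1 the difference was 0.00347 percentage points, with the opposite sign, and without control 2 it was -0.0781. It was -0.0637 with the 5 most abundant miRNAs left out of the library totals, and -0.0155 without miR-127-3p. Without miR-127-3p and the miR-299 pair, an alternative chosen after seeing the data, it was 0.00163, again with the opposite sign. No p-value is given for this sum. For vesicle preparations, fewer vesicles from cells that express a miRNA and less of that miRNA per vesicle cannot be told apart.

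Most members were seen in a single library. None of the 12 miRNAs was above 0 in all 4 libraries, against 141 of the other 377 miRNAs (37.4%), and 10 of the 12 were above 0 in a single library, against 137 of the other 377 (36.3%). Only 2 of the 12 reached 10 steps in any library, against 246 of the other 377 (65.3%). The median over members of the mean normalized value was 0.224, compared with 6.18 over the other miRNAs. Of the members 9 never exceeded 3 steps in a library, and 8 of these never exceeded 1 step.

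The second imprinted miRNA cluster of the mouse, in the Sfmbt2 gene on another chromosome, gave more signal in every library. The 19 listed miRNAs numbered miR-297, miR-466, miR-467 or miR-669 held 0.522% and 0.368% of the total in control 1 and 2 and 0.778% and 0.512% in heat stress 1 and 2. Of these 19, 14 (73.7%) were above 0 in a single library and 3 (15.8%) in all 4. Some of these numbers also have copies outside Sfmbt2, and the sums were not compared by a test.

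Within the Dlk1-Dio3 domain, the member with the highest mean value over all libraries lies antisense to Rtl1. MiR-127-3p, which pairs with Rtl1 along its whole length, had normalized values of 28.4 in control 1, 0 in control 2, 2.37 in heat stress 1 and 1.00 in heat stress 2. These values are 21, 0, 3 and 1 steps. MiR-127-3p was the highest member in control 1 and heat stress 1, but not in control 2 or heat stress 2. It held 25 of the 51 steps of the cluster and ranked 107 among the 223 miRNAs above 0 in control 1. Its rank was 204 of 250 in heat stress 1 and 247 of 270 in heat stress 2. The control libraries lay on either side of both heat stress libraries, so the groups overlapped.

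Expressed per 1000000 steps, miR-127-3p was at 481 in control 1 (95% exact binomial interval 298 to 735). Its 0 in control 2 allows up to the 31.6 given above for 3 steps, or up to 38.8 by the exact binomial interval. Heat stress 1 and 2 gave 29.7 (6.13 to 86.9) and 15.8 (0.400 to 88.0). The 2 control libraries thus differed beyond counting error, and a difference between the heat stress libraries, or between them and control 2, was not detectable at this depth.

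MiR-434-3p and miR-431-5p, the other listed miRNAs antisense to Rtl1, were each at 1 step in 1 library. MiR-434-3p was at 0.790 in heat stress 1 and at 0 in the other 3 libraries. MiR-431-5p was at 0.782 in control 2 and at 0 in the other 3. Of the 6 numbers assigned to this stretch, 3 were listed, and miR-433, miR-432 and miR-136 had no entry. The stretch held 21, 1, 4 and 1 steps in control 1, control 2, heat stress 1 and heat stress 2.

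The mature sequences of these 3 miRNAs are shown from RefSeq (GRCm38.p6) because each one is the exact complement of a site in the Rtl1 transcript. Capitals mark the seed (bases 2 to 8 from the 5′ end), and all 3 lie on the plus strand of chromosome 12, opposite to the coding exon of Rtl1 in the GENCODE M21 annotation of GRCm38. The build used by the authors is not given in the sources used here. MiR-127-3p lies at chr12:109592888-109592909, miR-434-3p at chr12:109594565-109594586 and miR-431-5p at chr12:109590459-109590479.
miR-127-3p: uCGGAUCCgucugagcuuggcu
miR-434-3p: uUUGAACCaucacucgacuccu
miR-431-5p: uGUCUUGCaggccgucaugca

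A search of all GENCODE M21 transcripts for full complements of the 12 members found these 3 in the Rtl1 transcript. The sites cover positions 2642 to 2663 for miR-127-3p, 965 to 986 for miR-434-3p and 5072 to 5092 for miR-431-5p, and capitals mark the bases that face the seed. Apart from Rtl1, the search returned the hairpins Mir299a and Mir299b themselves, for miR-299b-3p. The match is a property of the sequence and was not measured in these libraries.
Rtl1 site of miR-127-3p: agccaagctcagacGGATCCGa
Rtl1 site of miR-434-3p: aggagtcgagtgatGGTTCAAa
Rtl1 site of miR-431-5p: tgcatgacggcctGCAAGACa

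The distal stretch, which runs from miR-379 to miR-410 and is hosted in part by Mirg, contributed the remaining 9 members. Of the 32 numbers assigned to it, 8 were listed. It held 16 steps in control 1, 2 in control 2, 3 in heat stress 1 and 3 in heat stress 2. Control 1 was again the highest, and nearly all of its signal came from miR-299b-3p and miR-299a-3p.

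MiR-299b-3p was at 13.5 in control 1 and at 0 in the other 3 libraries. MiR-299a-3p was at 6.77 in control 1 and likewise at 0 elsewhere. These values are 10 and 5 steps. Against a limit of 3 steps in each heat stress library, the control mean of miR-299b-3p was at least 2.52-fold higher, and that of miR-299a-3p at least 1.26-fold higher. Both bounds rest on control 1, and without it both miRNAs are at 0 in all the libraries that remain.

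These entries may share reads. Their hairpins overlap on opposite strands, Mir299a on the plus strand at chr12:109710638-109710700 and Mir299b on the minus strand at chr12:109710645-109710693. The sequences are printed to show their overlap: the 18 bases of miR-299b-3p are the same as the first 18 of the 22 bases of miR-299a-3p, seed included. A read no longer than 18 bases would fit both entries, and the sources used here do not say how such reads were counted.
miR-299a-3p: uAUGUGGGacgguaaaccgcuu
miR-299b-3p: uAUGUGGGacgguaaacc

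MiR-543-3p was the only member above 0 in both heat stress libraries and in neither control library. It was at 0.790 in heat stress 1 and 2.00 in heat stress 2, which are 1 and 2 steps. A value of 0 in the control libraries allows up to 3 steps, so a difference was not detectable at this depth.

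The other 6 members of the distal stretch were each seen as 1 step in 1 library. MiR-323-3p was at 1.35 in control 1. MiR-134-5p, the miRNA known for its role in dendritic spines, and miR-494-3p were each at 0.782 in control 2. MiR-379-5p, the first miRNA of the stretch, and miR-381-3p were each at 0.790 in heat stress 1, and miR-382-5p was at 1.00 in heat stress 2. Of these, miR-134-5p lies in an exon and miR-382-5p in an intron of Mirg on the same strand, while miR-379-5p, miR-323-3p, miR-494-3p and miR-381-3p overlap no other annotated gene in GENCODE M21.

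Apart from the miR-299 pair, the 12 members share no seed with one another or with any of the other listed miRNAs found in RefSeq. The sequences of the remaining 7 are given so that their seeds can be compared. MiR-379-5p has the seed of miR-1193-5p, another miRNA of the domain, which is not listed in the table.
miR-379-5p: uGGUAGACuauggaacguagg
miR-323-3p: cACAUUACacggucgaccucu
miR-494-3p: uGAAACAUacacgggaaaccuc
miR-543-3p: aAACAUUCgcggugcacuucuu
miR-381-3p: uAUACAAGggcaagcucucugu
miR-382-5p: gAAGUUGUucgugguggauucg
miR-134-5p: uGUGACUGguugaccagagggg

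**Figure D2:**
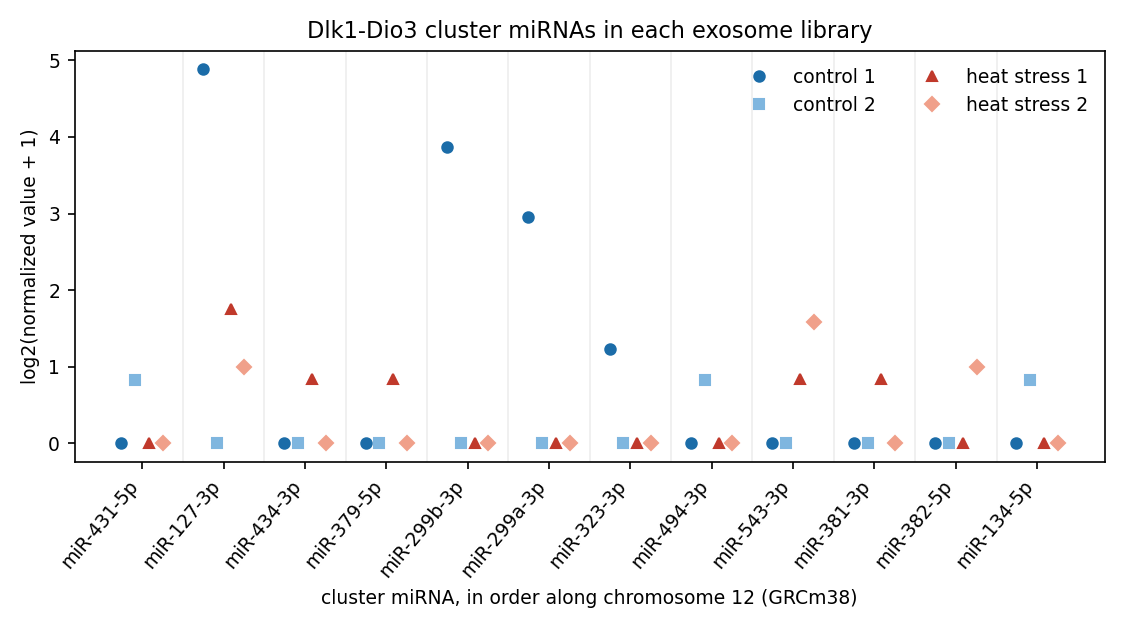
Normalized value of each cluster miRNA on the log2(value + 1) scale, in order along chromosome 12, with 1 point per library (circles and squares for control 1 and 2, triangles and diamonds for heat stress 1 and 2). MiR-127-3p, miR-299b-3p and miR-299a-3p are highest in control 1, at normalized values of 28.4, 13.5 and 6.77, and no point of the other 3 libraries exceeds a normalized value of 2.37.

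Of the 95 RefSeq miRNA names that meet the rule, 94 lie within 180.1 kb (chr12:109563710-109743784, from miR-770 to miR-410). The other, miR-496b, lies on chromosome 19 and was not listed in the table. In the chromosome 12 interval RefSeq has 108 mature miRNA names from 58 hairpin genes, and 12 of them (11.1%) were listed, compared with 313 of 1571 names outside it (19.9%). Of the 389 listed names 325 were found in RefSeq, all 12 members among them. Of the listed members 8 were 3p arms and 4 were 5p arms, and in none of their 12 hairpins were both arms listed. The proximal end was empty: none of the 6 numbers of Meg3 and the stretch upstream of Rtl1 was listed (miR-770, miR-673, miR-493, miR-337, miR-540 and miR-665), nor were miR-341, miR-370 or miR-882 between Rtl1 and miR-379. Another 8 numbers outside the rule were also taken for the domain. Only miR-3072-5p of these was listed, at 2.35 in control 2 and at 0 in the other 3 libraries. It is not among the 108 RefSeq names of the interval. The 8 numbers are not a complete list of what the rule leaves out, since the hairpin Mir453 also lies in the interval.

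**Figure D3:**
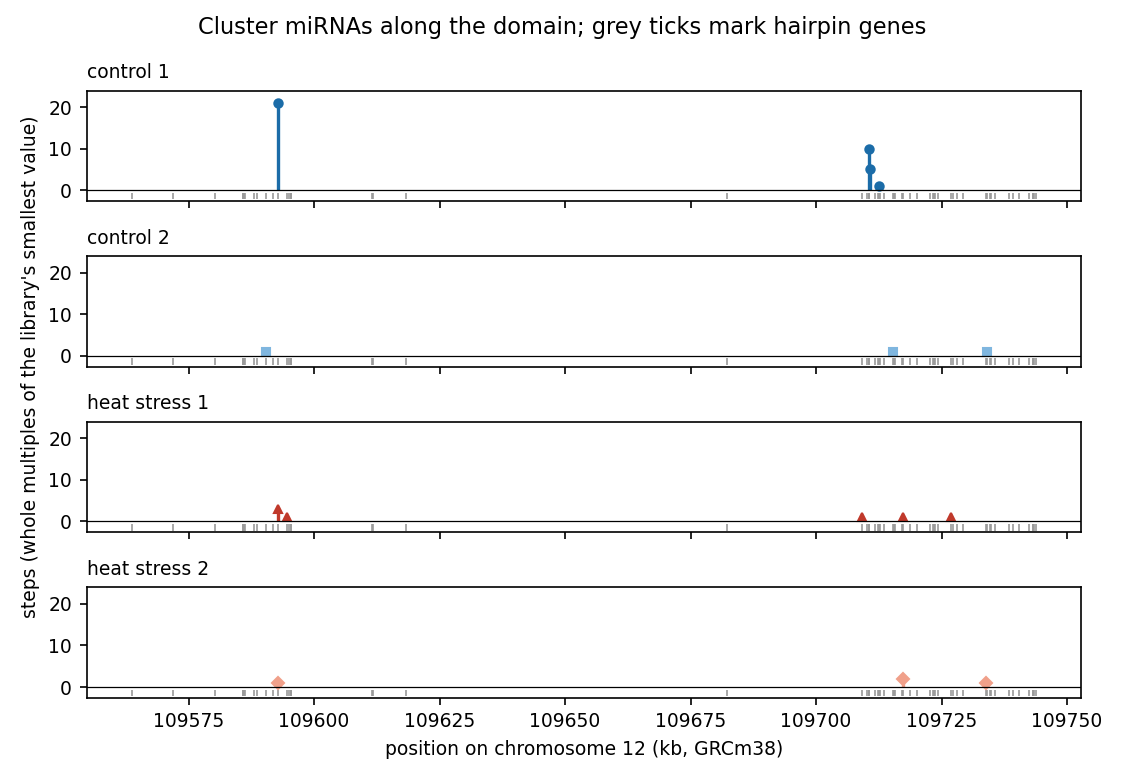
Steps of each cluster miRNA along chromosome 12 (kb, GRCm38), with 1 panel per library and grey ticks for the 58 hairpin genes that RefSeq has in the interval. Control 1 shows 21 steps at miR-127-3p and 10 and 5 steps at the miR-299 pair, and the other panels show between 1 and 3 steps at 3 to 5 places.

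The groups were compared with limma's moderated test on log2(value + 1), over the 313 miRNAs whose mean value was at least 1. The threshold was a change above 2-fold with an unadjusted p below 0.05. Of the 12 members 3 entered this test, miR-127-3p, miR-299a-3p and miR-299b-3p, and the other 9 were too low. The miR-299 pair entered only because of control 1, so neither the number of members tested nor their median supports a direction. Among all tested miRNAs, 14 were past the threshold as higher after heat stress (4.47%) and 9 as lower (2.88%), and none of the 3 members was among them. With limma's p-values adjusted by Benjamini-Hochberg over all 313 miRNAs, 0 (0%) were under 0.05, against 23 with an unadjusted p under 0.05. With 2 libraries against 2, an exact permutation test cannot give a two-sided p below 0.333.

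The log2 change of miR-127-3p after heat stress was -1.06, with a standard error of 1.78 and a 95% interval from -5.65 to 3.52 (adjusted p = 0.926, limma with Benjamini-Hochberg adjustment). For miR-299b-3p it was -1.93 (standard error 1.48, 95% interval -5.76 to 1.89), and for miR-299a-3p -1.48 (standard error 1.25, 95% interval -4.72 to 1.76), both with a limma adjusted p of 0.686. The median of the 3 was -1.48, beside 0.122 over all 313 miRNAs. It was -1.06 with both miR-299 entries set by their ratios to the limit of 3 steps. It was 0 without control 1, -3.50 without control 2, -3.05 with 0.1 added in place of 1, and -0.42 over all 12 members without the filter. Changes on this scale depend on the value added before the logarithm: with 0.1 in place of 1, the log2 change of miR-127-3p was -0.03, and that of miR-299b-3p and miR-299a-3p -3.55 and -3.05. The 95% intervals include changes of several fold in either direction. With the low-value filter removed, all 12 members were tested and 0 were past the threshold, the smallest unadjusted limma p among them being 0.199.

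Control 1 and control 2 pulled these estimates in opposite directions. With control 1 left out, the log2 change of miR-127-3p was 1.38, and that of both miR-299 entries was 0. With control 2 left out, all 3 were past the threshold as lower, at -3.50 for miR-127-3p, -3.86 for miR-299b-3p and -2.96 for miR-299a-3p, where 24 of 313 miRNAs (7.67%) were past it in that direction. In this fit the single control library is assumed to vary as the heat stress libraries do. For the miR-299 pair that spread is nil, since both entries are at 0 in both heat stress libraries. The pair also entered the test only because of control 1, so its calls here were set by that library alone. The counts past the threshold in this fit are therefore not read as a change after heat stress.

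High signal in control 1 alone was also seen outside the cluster. Over the whole table, 7 miRNAs had at least 10 steps in control 1 and at most 3 steps in each other library, a pattern chosen after the values were seen. These were 2 of the 12 members (16.7%), miR-127-3p and miR-299b-3p, and 5 of the other 377 miRNAs (1.33%), and the shares were not compared by a test. The same pattern was seen for 16 miRNAs in control 2, 18 in heat stress 1 and 6 in heat stress 2, none of them members.

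Markers of cell types, written from general knowledge, were read in the same libraries. MiR-21a-5p and miR-143-3p, from the list for glial or mesenchymal cells, were present in every library. MiR-21a-5p was at 228 and 517 in control 1 and 2 and 465 and 412 in heat stress 1 and 2. Of the 4 glial or mesenchymal markers 3 were listed (miR-29b-3p was not). Their summed values were 597 and 851 in control 1 and 2 and 845 and 728 in heat stress 1 and 2. Control 1 was the lowest in this sum because of miR-21a-5p. MiR-143-3p was at 321 and 309.8 in control 1 and 2 and 354 and 279 in heat stress 1 and 2, and miR-29a-3p was highest in control 1, at 48.8 against 24.3 in control 2 and 25.3 and 36.0 in heat stress 1 and 2.

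Of the 6 neuronal markers 4 were listed, and their summed values were 589 and 541 in control 1 and 2 and 486 and 415 in heat stress 1 and 2. MiR-128-3p made up most of each sum. It was at 531 and 539.8 in control 1 and 2 and 465 and 382 in heat stress 1 and 2. Its normalized value was highest in control 2, but the library total was also larger there (74336.9) than in control 1 (59164.7). Marker values were not expressed as shares of these totals. MiR-129-5p was at 40.6 and 1.56 in control 1 and 2 and 20.5 and 30.0 in heat stress 1 and 2. MiR-124-3p, the defining miRNA of neurons, was at 4.06 in control 1, 3.00 in heat stress 2 and 0 in the other libraries, miR-138-5p was at 13.5 in control 1 only, and miR-132-3p and miR-137-3p were not listed. The 3 liver and red cell markers that serum can carry summed to 1042 and 610.2 in control 1 and 2 and 812 and 645 in heat stress 1 and 2, with miR-486a-5p the most abundant. MiR-122-5p was at 90.8 and 33.6 in control 1 and 2 and 20.5 and 76.1 in heat stress 1 and 2. MiR-451a was not highest in control 1, at 17.6 and 23.5 in control 1 and 2 and 15.0 and 37.0 in heat stress 1 and 2. The sums of both lists were highest in control 1, though not each of their miRNAs, and their part in the cluster's signal there was not tested.

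The 2 oligodendrocyte markers were not listed, and of the 4 microglial and myeloid markers 3 were, with summed values of 24.4, 18.0, 29.2 and 27.0 in control 1, control 2, heat stress 1 and heat stress 2. Most of this was miR-142a-5p, while miR-223-3p was at 0 in 3 libraries.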

How the data were processed

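Exosome-enriched preparations of 2 control and 2 heat stress cultures were sequenced for small RNA. The study's methods describe trimming of adapters, removal of short or low-quality reads and alignment to a genome by Bowtie, while the submitters' processing notes name FastQC and BWA. The genome build, miRNA release and normalization step are not given in the sources used here. The deposited table holds 1 normalized signal per mature miRNA and library, as deposited by the authors. All values were whole multiples of their library's smallest value within a tolerance of 1e-06. The authors' fold changes and p-values, also in the table, and their list of selected miRNAs were not used.

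Members were found by miRNA number. The members, lists and tests were chosen with earlier results of these data known. Named members were those past the threshold, the 10 largest means with ties (which took in all 12) and those above 0 in all libraries. The groups were compared by limma (version 3.58.1, R version 4.3.3) on log2(value + 1), with condition as the only term, a mean value of at least 1 and Benjamini-Hochberg adjustment. No count model was run, since steps could be taken as reads in only 2 of the 4 libraries. The fit was tested on simulated data. The 95% intervals of shares are exact binomial (scipy version 1.17.1). Sequences and positions come from RefSeq (GRCm38.p6) and gene overlaps from GENCODE M21. Alternatives were another pseudocount, other filters, library totals, another variance prior, a replicate block, other memberships and leaving out each library. Removing the miR-127 and miR-299 entries from the share was chosen after seeing the data.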

Additional observations from a re-analysis of the deposited data

How the results depend on the processing

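The number of members past the threshold was 0 higher and 0 lower with a pseudocount of 0.1 and without the low-value filter. It was also 0 in both directions with library totals, a mean-dependent prior variance and the replicate block. Either other membership tested the same 3 members, so its counts could not differ. All members lie in the chromosome 12 interval, and the added miR-3072-5p was too low to enter the test. With 1 library left out no count is read, because the library left alone in its group is assumed to vary like the other group. Without control 2 this spread is nil for the miR-299 pair, which is at 0 in both heat stress libraries. The median log2 change ranged from -3.50 (without control 2) to 0 (without control 1) with 1 library left out, the 0 being set by the miR-299 pair, which is at 0 in all libraries but control 1. It was -3.05 with a pseudocount of 0.1 and -0.42 without the filter. With a minimum mean value of 10 no member could be tested. MiR-127-3p ranged from -3.50 to 1.38 with 1 library left out, and was -0.03 with a pseudocount of 0.1 against -1.06 with 1. The difference in share, -0.0373 percentage points, ranged from -0.0781 to 0.00347 with 1 library left out, and was -0.0637 without the 5 most abundant miRNAs in the totals, -0.0155 without miR-127-3p and 0.00163 without the miR-127 and miR-299 entries. The replicate block left the log2 change of miR-127-3p at -1.06 and changed no call. The labels give the libraries only a shared number, and deviations of same-numbered libraries had a correlation of -0.0189 across 313 miRNAs. Depth limits every member but miR-127-3p and the miR-299 pair in control 1, since none of the others exceeded 3 steps.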

Other observations

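Outside the cluster, 5 miRNAs had the pattern of miR-299b-3p, with at least 10 steps in control 1 and 0 in the other 3 libraries, and were named after their values were seen. MiR-425-3p and miR-3473h-5p were each at a normalized value of 20.3 in control 1, miR-6994-5p at 17.6, miR-29b-1-5p at 16.3 and miR-138-5p at 13.5.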
